A study of Homo sapiens with 8 samples.

Results

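The genes described here are 38 human genes of glycolysis and of the transcriptional response to low oxygen: 16 glycolytic enzymes, 5 genes of lactate transport and glycolytic flux control, 5 oxygen sensors and transcription factors, and 12 other genes that hypoxia is known to induce. They were chosen by name, from known function, with earlier results of these data known. Each gene was represented by the probe with the highest mean over the 8 arrays, and 35 of the 38 had a named probe, out of 15971 genes named on the arrays. SLC16A1, SLC16A3 and CA9 were not analysed here. The cells were MDA-MB-231, a human breast cancer line of mesenchymal type. The 4 miR-148b arrays came from cells transfected with a miR-148b precursor at 75 nM, and the 4 control arrays from cells transfected with a negative control, with RNA taken after 48 h. The 2 groups shared the growth conditions, in high-glucose medium with pyruvate, and the labels name no low-oxygen treatment. Each title adds a code from 1 to 3, in 3 cases followed by a plus mark, and the labels explain neither. Code 1 stands on miR-148b replicates 1 and 2 and control replicate 1, code 2 on miR-148b replicate 3 and control replicates 2 and 3, and code 3 on replicate 4 of both groups. The plus mark stands on miR-148b replicates 2 and 3 and control replicate 3. The experiment is a transient transfection of 1 cell line, and the labels call the arrays biological replicates without saying what was separate about them.

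Glycolysis splits glucose into pyruvate in the cytosol, and lactate dehydrogenase turns pyruvate into lactate, so that ATP can be made without oxygen. Many of its enzymes are induced by the hypoxia-inducible factors, heterodimers of an oxygen-regulated alpha subunit (HIF1A or EPAS1) and a constant beta subunit (ARNT). In the presence of oxygen, prolyl hydroxylases (EGLN1, EGLN3) mark the alpha subunits for destruction through the VHL ubiquitin ligase. Tumour lines often run glycolysis at a high rate also with oxygen present, and HIF activity is set mainly at the protein level, which arrays do not measure.

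MicroRNA-148b is processed from a hairpin into mature strands that pair with messages mainly through the seed, bases 2 to 8. Both mature strands are shown because the labels do not say which of them the transfected precursor delivers. The sequences are RefSeq's for GRCh38.p14, 5′ to 3′, with the seed in capitals.
hsa-miR-148b-5p, chr12:54337240-54337261 (+): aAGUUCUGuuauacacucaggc
hsa-miR-148b-3p, chr12:54337278-54337299 (+): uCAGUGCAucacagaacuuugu

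The deposited values are probe intensities on a linear scale, with medians of 370.2 to 403.6 and a shared highest value of 243058, and how they were normalized is not stated. The arrays correlated at 0.947 to 0.992 over probes, and 0 pairs were identical. The table carries no detection flag, so no gene was called absent, and precision is limited by having only 8 arrays. Of the markers of a mesenchymal breast line, VIM lay at the 99.8th percentile of all probes by mean level and CD44, AXL, MSN and CAV1 above the 96th, while SPARC lay at the 38.1st. ESR1 and CDH1 lay low, at the 24.4th and 24.7th percentile, whereas ERBB2, EPCAM, KRT8, KRT18 and KRT19, listed as low or dim, lay above the 79th. All 12 named markers of other cell types lay below the median probe: the 5 of leukocytes between the 2.73rd (PTPRC) and the 42.8th percentile (CD14), the 3 of endothelial cells between the 3.1st (CDH5) and the 36.3rd (PECAM1), and the 4 of fibroblasts between the 4.58th (DCN) and the 44.1st (COL1A2).

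Between the code 1 arrays and the other codes, the HIF pathway genes moved in both directions. ANGPTL4, the gene of a secreted inhibitor of lipoprotein lipase, was 3.97-fold higher on code 1, and VEGFA, the gene of the main angiogenic growth factor, and the oxygen sensors EGLN1 and EGLN3 were 1.95-fold lower, 1.90-fold lower and 1.72-fold lower. Most glycolytic enzymes showed small differences. In all, 12 of the 35 measured genes (34.3%) passed an adjusted p of 0.05, 5 higher and 7 lower. Over all genes tested, 32.4% passed (15.4% higher, 16.9% lower), so the share among the hypoxia and glycolysis genes was close to the background. The median log2 difference was 0.062 over the 35 genes and -0.043 over all genes. The test was limma on log2 intensities of all probes, with code 1, plus mark and treatment fitted together and Benjamini-Hochberg adjustment over all probes. All adjusted p-values in the text come from this fit.

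**Figure D1:**
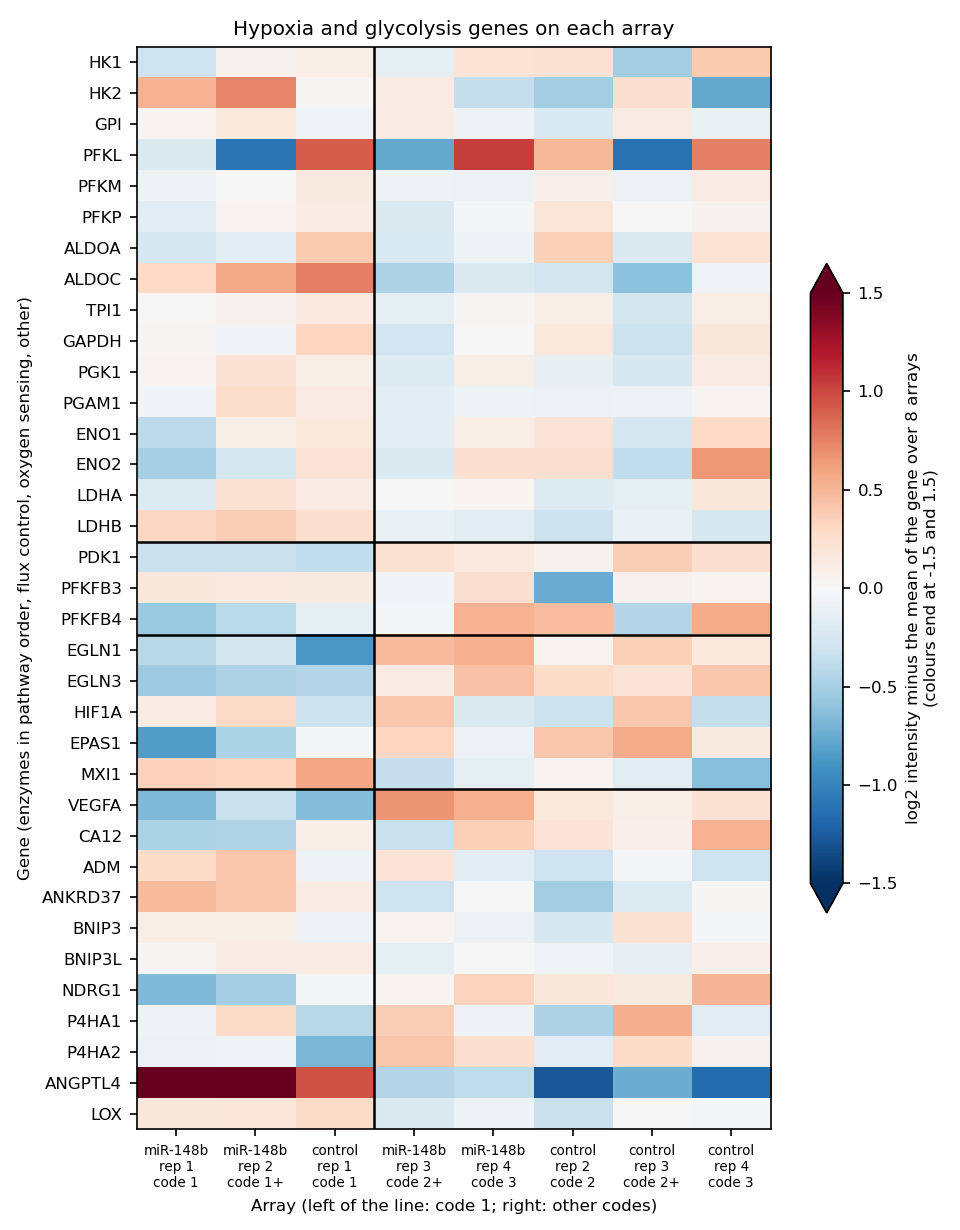
Deviation of each gene from its own mean over the 8 arrays (log2), with the 35 genes in rows by class and the arrays in columns, code 1 left of the line and other codes right. Red is above and blue below the gene's mean, and colours end at 1.5 either way. ANGPTL4 is above its mean on all 3 code 1 arrays, and VEGFA, EGLN1 and EGLN3 are below theirs on the same arrays.

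Along the glycolytic pathway, 3 of the 16 enzymes rose on code 1, 0 fell and 13 did not pass the test, a share of 18.8% called against 32.4% of all genes. The per-array values in these sentences follow the replicate number within each group. Hexokinase 2 (HK2), the inducible isoform of the enzyme that traps glucose as glucose 6-phosphate, read 15504 and 17924 (miR-148b) and 10922 (control) on code 1, against 11703 and 8442 (miR-148b) and 7509.7, 12821 and 6327 (control) on the other codes. HK2 was 1.59-fold higher on code 1 (log2 difference 0.67, SE 0.16, adjusted p = 0.0235), although control replicate 3 reached the level of the code 1 arrays and the groups overlapped. Its call was lost without miR-148b replicate 3 or 4 or control replicate 1, with an adjusted p of up to 0.0967. Hexokinase 1 (HK1) ranged over 5158 to 9731 on the 8 arrays, with a log2 difference of -0.12 that did not pass.

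Glucose-6-phosphate isomerase (GPI) and the 3 phosphofructokinase genes, whose enzyme commits sugar to glycolysis, did not pass for code 1. Their log2 differences were 0.078 (GPI), -0.30 (PFKL), 0.063 (PFKM) and 0.039 (PFKP). Of the aldolases, which split fructose 1,6-bisphosphate, ALDOC read 108 and 131 (miR-148b) and 148 (control) on code 1, against 64.1 and 75.9 (miR-148b) and 73, 57.5 and 84.6 (control) on the other codes. All 3 code 1 arrays lay above all 5 others, and ALDOC was 1.83-fold higher (log2 difference 0.87, SE 0.16, adjusted p = 0.0101). This probe was dim, at the 29.1st percentile of mean level, and its call was lost without control replicate 1 (adjusted p = 0.0816). The main muscle and tumour aldolase, ALDOA, differed by 0.052 and did not pass.

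Below aldolase no enzyme up to enolase passed for code 1. Triosephosphate isomerase (TPI1) differed by 0.10 and phosphoglycerate mutase (PGAM1) by 0.21 on the log2 scale. GAPDH, glyceraldehyde 3-phosphate dehydrogenase, read 57714 and 55160.3 (miR-148b) and 71163 (control) on code 1, against 46479.8 and 56830.4 (miR-148b) and 63252, 45421 and 63828 (control) on the other codes, a log2 difference of 0.17 with overlapping groups. The ATP-forming enzyme PGK1 read 59302 and 66949.6 (miR-148b) and 61069.5 (control) on code 1, against 50329 and 61420.2 (miR-148b) and 52823, 48760.0 and 62642 (control) on the other codes (log2 difference 0.16). Both genes sat near the top of the intensity range on every array, and for neither did the code separate the arrays. ENO1, the enolase of most tissues, read 42315 and 59109 (miR-148b) and 62319 (control) on code 1, against 49701 and 59639.9 (miR-148b) and 63577, 46363 and 68629.6 (control) on the other codes (log2 difference -0.055), and its neuronal paralogue ENO2 ranged over 729.8 to 1608 with a log2 difference of -0.28.

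Pyruvate kinase, the step between enolase and lactate dehydrogenase, is not among the enzymes listed for this set. The lactate dehydrogenase subunits gave different results. LDHA, the subunit that hypoxia induces, read 56551 and 76064 (miR-148b) and 71040.1 (control) on code 1, against 65250.3 and 66779 (miR-148b) and 57098, 59529.7 and 73532 (control) on the other codes, a log2 difference of 0.076 with the groups interleaved. LDHB, the heart-type subunit, read 100464 and 104521 (miR-148b) and 96101 (control) on code 1, against 75711 and 71587 (miR-148b) and 64563, 75256 and 68448 (control) on the other codes. All code 1 values of LDHB lay above all others, and it was 1.41-fold higher (log2 difference 0.49, SE 0.10, adjusted p = 0.0115). Without miR-148b replicate 3 or 4 or control replicate 1, the adjusted p was up to 0.0786.

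Of the regulators of glycolytic flux, 1 of 3 measured passed for code 1 (33.3%, against 32.4% of all genes). PDK1, pyruvate dehydrogenase kinase, which keeps pyruvate out of the mitochondrial citric acid cycle, read 1258 and 1261 (miR-148b) and 1228 (control) on code 1, against 1854 and 1751 (miR-148b) and 1651, 2041 and 1870.3 (control) on the other codes. PDK1 was 1.45-fold lower on code 1 (log2 difference -0.53, SE 0.11, adjusted p = 0.0122) with no overlap, and a further, dimmer probe of the gene passed in the same direction with a log2 difference of -0.57. The call of the brighter probe was lost without miR-148b replicate 2 or 4 or control replicate 1 (adjusted p up to 0.0814). The bifunctional enzymes that set fructose 2,6-bisphosphate, the activator of phosphofructokinase, did not pass: the log2 difference was -0.63 for PFKFB4 (adjusted p = 0.065) and 0.19 for PFKFB3.

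Among the oxygen sensors and transcription factors, 4 of 5 passed for code 1 (80%, against 32.4% of all genes), 1 higher and 3 lower, and a class of 5 gives only a coarse share. EGLN1, the main HIF prolyl hydroxylase, read 1718 and 1896 (miR-148b) and 1247 (control) on code 1, against 3183 and 3331 (miR-148b) and 2362, 2936 and 2555 (control) on the other codes. It was 1.90-fold lower on code 1 (log2 difference -0.92, SE 0.11, adjusted p = 0.00207), and both further probes of EGLN1 passed in the same direction, with log2 differences of -0.85 and -0.55. EGLN3, a hydroxylase that HIF itself induces, read 156 and 165 (miR-148b) and 167 (control) on code 1, against 248 and 308 (miR-148b) and 276, 261 and 301 (control) on the other codes. It was 1.72-fold lower (log2 difference -0.78, SE 0.11, adjusted p = 0.0037), with a dim probe at the 42.7th percentile. For both genes the code 1 arrays lay below all others, and the call stayed when any 1 array was left out.

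HIF1A, the alpha subunit of most acute responses to hypoxia, read 9380.2 and 10568 (miR-148b) and 6946 (control) on code 1, against 11463 and 7459 (miR-148b) and 6915, 11513 and 6786 (control) on the other codes. Its arrays overlapped and the log2 difference was 0.041, with a 95% interval of -0.29 to 0.37. EPAS1, which encodes the alpha subunit HIF-2α, read 5351 and 6874 (miR-148b) and 9327 (control) on code 1, against 11943 and 8990.4 (miR-148b) and 12651, 14048 and 10485 (control) on the other codes. EPAS1 was 1.48-fold lower on code 1 (log2 difference -0.57, SE 0.15, adjusted p = 0.0296), although control replicate 1 lay above miR-148b replicate 4. Its call was lost without control replicate 2 or any 1 of the miR-148b arrays (adjusted p up to 0.137). MXI1, a MYC antagonist and HIF target, read 828 and 813 (miR-148b) and 974 (control) on code 1, against 511 and 585 (miR-148b) and 670.3, 576 and 418 (control) on the other codes. It was 1.61-fold higher (log2 difference 0.69, SE 0.19, adjusted p = 0.0356) with no overlap, and its call was lost without control replicate 1 or any 1 of the miR-148b arrays (adjusted p up to 0.193).

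**Figure D2:**
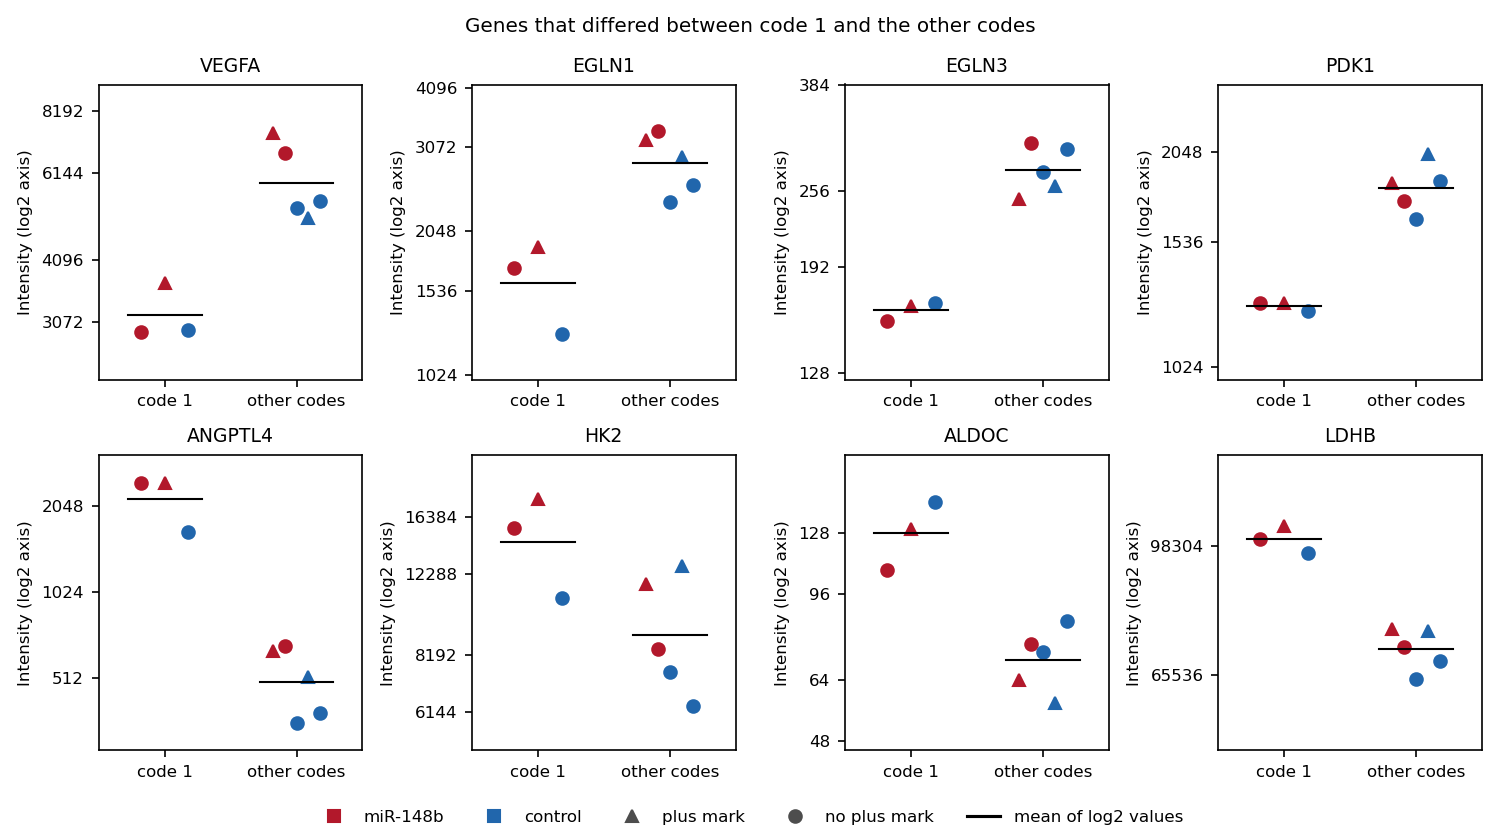
Intensity (log2 axis) of VEGFA, EGLN1, EGLN3 and PDK1, which fell on code 1, and ANGPTL4, HK2, ALDOC and LDHB, which rose, 1 panel per gene, with code 1 arrays left and other codes right. Points are arrays (red miR-148b, blue control, triangles for the plus mark) and lines are means of log2 values. The ANGPTL4 values on code 1 lie between 1664 and 2485 and on the other codes between 355 and 662.

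Of the 11 other hypoxia-induced genes measured, 4 passed for code 1 (36.4%, against 32.4% of all genes), 1 higher and 3 lower. ANGPTL4 read 2485 and 2477 (miR-148b) and 1664 (control) on code 1, against 636 and 662 (miR-148b) and 355, 513 and 386 (control) on the other codes. Its means were 2209 ± 472 on code 1 (SD, n = 3) and 510.4 ± 139.8 on the other codes (SD, n = 5), and it was 3.97-fold higher (log2 difference 1.99, SE 0.14, adjusted p = 0.000256). The lowest code 1 array, the control, stood above the highest other array, miR-148b replicate 4. This was the only one of the 35 genes with a log2 difference over 1 in either direction, and its call stayed when any 1 array was left out.

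VEGFA read 2935 and 3686 (miR-148b) and 2963 (control) on code 1, against 7398 and 6733 (miR-148b) and 5201, 4973 and 5398 (control) on the other codes. It was 1.95-fold lower on code 1 (log2 difference -0.96, SE 0.13, adjusted p = 0.00302), without overlap, and its call stayed when any 1 array was left out. The 3 further VEGFA probes also passed, with log2 differences of -0.96, -1.07 and -0.84. NDRG1, a stress-responsive gene that hypoxia strongly induces, read 17034 and 18881 (miR-148b) and 26643 (control) on code 1, against 27605 and 34082 (miR-148b) and 30311, 29603 and 38238 (control) on the other codes. Its code 1 arrays lay below all others (log2 difference -0.59, SE 0.16, adjusted p = 0.0378). P4HA2, a subunit of the collagen prolyl hydroxylase, read 10016 and 10144 (miR-148b) and 6639 (control) on code 1, against 14197 and 12716 (miR-148b) and 9429.6, 12854 and 11158 (control) on the other codes. Here miR-148b replicates 1 and 2 lay above control replicate 2, so the groups overlapped (log2 difference -0.52, SE 0.13, adjusted p = 0.0247). The NDRG1 call was lost when any 1 array other than control replicate 2 or 3 was left out (adjusted p up to 0.183), and the P4HA2 call without miR-148b replicate 2, 3 or 4 or control replicate 1 or 4 (adjusted p up to 0.164).

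The other 7 hypoxia-induced genes did not pass for code 1. Adrenomedullin (ADM), a vasodilator peptide, had a log2 difference of 0.28 (adjusted p = 0.079). ANKRD37, an ankyrin-repeat HIF target, had 0.48 (adjusted p = 0.0767), and LOX, the collagen cross-linking lysyl oxidase, had 0.36 (adjusted p = 0.0771), both with code 1 arrays above all others. Carbonic anhydrase 12 (CA12) had -0.39, the other collagen prolyl hydroxylase subunit P4HA1 -0.10, and the mitophagy receptors BNIP3 and BNIP3L 0.062 and 0.14. Between code 1 and the other codes, 11 of the 35 genes (31.4%) had groups without overlap, against 33.3% of all genes. All 11 further probes of the called genes had the sign of the brightest probe. The 6 of PDK1, EGLN1 and VEGFA also passed, and those of HK2, NDRG1, P4HA2 and EPAS1 did not.

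HIF dimers bind the core letters ACGTG and GCGTG. These 2 motifs were searched on both strands in the 250 bases before each gene's RefSeq start, with a CACGTG counted on both strands. The windows of the 2 largest rises and the 2 largest falls on code 1 among called genes with a single start in RefSeq are shown, 5′ to 3′ on the gene's strand in GRCh38.p14, with motif letters in capitals. The windows of VEGFA, NDRG1 and BNIP3L were not analysed here.
ANGPTL4, chr19:8363905-8364154 (+): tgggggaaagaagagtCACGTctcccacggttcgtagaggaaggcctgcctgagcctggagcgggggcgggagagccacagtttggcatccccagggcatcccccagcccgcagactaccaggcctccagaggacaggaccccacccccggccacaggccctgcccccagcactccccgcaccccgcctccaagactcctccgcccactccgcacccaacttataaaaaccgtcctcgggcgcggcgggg
ALDOC, chr17:28576896-28577145 (-): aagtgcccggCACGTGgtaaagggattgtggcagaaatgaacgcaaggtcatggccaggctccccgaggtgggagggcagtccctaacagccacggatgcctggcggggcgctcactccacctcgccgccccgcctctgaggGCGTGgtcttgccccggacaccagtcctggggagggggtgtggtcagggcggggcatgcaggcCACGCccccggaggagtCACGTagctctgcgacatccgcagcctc
EGLN1, chr1:231422288-231422537 (-): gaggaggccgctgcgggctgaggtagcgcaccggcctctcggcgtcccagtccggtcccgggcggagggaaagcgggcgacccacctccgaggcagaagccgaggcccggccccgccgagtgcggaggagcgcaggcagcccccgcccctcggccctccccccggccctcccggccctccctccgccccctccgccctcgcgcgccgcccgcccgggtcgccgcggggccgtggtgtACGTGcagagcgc
EGLN3, chr14:33951075-33951324 (-): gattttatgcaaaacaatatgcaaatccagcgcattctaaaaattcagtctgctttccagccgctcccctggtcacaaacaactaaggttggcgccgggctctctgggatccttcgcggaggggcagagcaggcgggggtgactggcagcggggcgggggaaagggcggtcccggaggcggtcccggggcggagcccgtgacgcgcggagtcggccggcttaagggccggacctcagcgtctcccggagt
The ALDOC window holds 5 matches, 2 of them from 1 palindromic CACGTG, ANGPTL4 and EGLN1 hold 1 each and EGLN3 holds 0. Over all start sites, 37 of 59 windows of these genes (62.7%) hold a motif. Of all 35116 RefSeq windows, whether or not the gene is on the arrays, 15172 do (43.2%). By gene, any window of 28 of 32 genes with an entry (87.5%) holds a motif. Among them are 7 of 10 genes called for code 1 (70.0%) and 21 of 22 not called (95.5%). The share is 47.4% over all 27305 genes with an entry, a set not limited to genes on the arrays. Genes differ in how many windows they have, and a match in these letters is a description of the sequence only.

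The plus mark went with fewer differences. PFKL, the liver-type phosphofructokinase, was 3.03-fold lower on the plus arrays, and the collagen hydroxylase subunit P4HA1 and HIF1A were 1.51-fold higher and 1.46-fold higher. These 3 of 35 genes (8.57%) passed, 2 higher and 1 lower, while 13.4% of all genes tested did (5.7% higher, 7.71% lower). The median log2 difference was -0.039 over the 35 genes and 0.048 over all genes. With each array centred on its median, PFKL alone passed, so the split became 0 higher and 1 lower.

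PFKL read 759 and 949 (miR-148b) and 745 (control) with the plus mark, against 1397 and 3319 (miR-148b) and 3049.5, 2278 and 2726 (control) without it. All plus arrays lay below all others (log2 difference -1.60, SE 0.30, adjusted p = 0.0193). The 2 probes of this gene disagreed in size: the dimmer one had a log2 difference of -0.28 and did not pass. The call of the brighter probe was lost without control replicate 3 or miR-148b replicate 2, 3 or 4 (adjusted p up to 0.106). P4HA1 read 820.0 and 869 (miR-148b) and 978 (control) with the plus mark, against 636 and 640.1 (miR-148b) and 506, 486 and 600.2 (control) without it. Every plus value lay above every other (log2 difference 0.60, SE 0.14, adjusted p = 0.0398).

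HIF1A read 10568 and 11463 (miR-148b) and 11513 (control) with the plus mark, against 9380.2 and 7459 (miR-148b) and 6946, 6915 and 6786 (control) without it. The plus arrays lay above the rest, with miR-148b replicate 1 nearest to them (log2 difference 0.55, SE 0.14, adjusted p = 0.0418). Leaving out any 1 array other than miR-148b replicate 1 ended the calls of P4HA1 and of HIF1A, with adjusted p-values up to 0.181 and 0.194. The fourth gene by p was HK2, which read 17924 and 11703 (miR-148b) and 12821 (control) with the plus mark, against 15504 and 8442 (miR-148b) and 10922, 7509.7 and 6327 (control) without it (log2 difference 0.58, SE 0.16, adjusted p = 0.0545), with overlapping groups.

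The other glycolytic enzymes did not pass for the plus mark. Of all 16, PFKL included, 11 had negative log2 differences, as did 7068 of all 15865 genes tested. In pathway order the values not yet given began with -0.33 for HK1, 0.21 for GPI, -0.046 for PFKM and -0.04 for PFKP. They went on with -0.24 for ALDOA, -0.19 for ALDOC and -0.18 for TPI1. GAPDH, with -0.31 (adjusted p = 0.112), had its 3 plus arrays, at 55160.3 and 46479.8 (miR-148b) and 45421 (control), below the other 5. From there on the log2 differences were -0.12 for PGK1, 0.047 for PGAM1, -0.15 for ENO1, -0.42 for ENO2, 0.052 for LDHA and 0.11 for LDHB. The plus arrays of GPI all lay above the rest.

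Outside the enzyme chain, the plus mark log2 differences were 0.12 for PDK1, 0.051 for PFKFB3 and -0.52 for PFKFB4. EGLN1 had 0.14, EGLN3 -0.13, EPAS1 0.31 and MXI1 -0.039. Among the remaining hypoxia-induced genes, VEGFA had 0.076, ADM 0.26, P4HA2 0.21, BNIP3 0.19, ANGPTL4 0.16 and LOX 0.029, while CA12 had -0.34, NDRG1 -0.16, ANKRD37 -0.074 and BNIP3L -0.058. Probes of 1 gene often differed for the plus mark. Of 27 further probes of 17 genes, 15 had the sign of the brightest probe, and 4 passed where the brightest did not: ALDOA with a log2 difference of -1.23, VEGFA with -0.77, PDK1 with 0.55 and EGLN1 with 0.54. These 4 were named because they are all there were. Without overlap were 5 of the 35 genes (14.3%), against 16.1% of all genes.

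**Figure D3:**
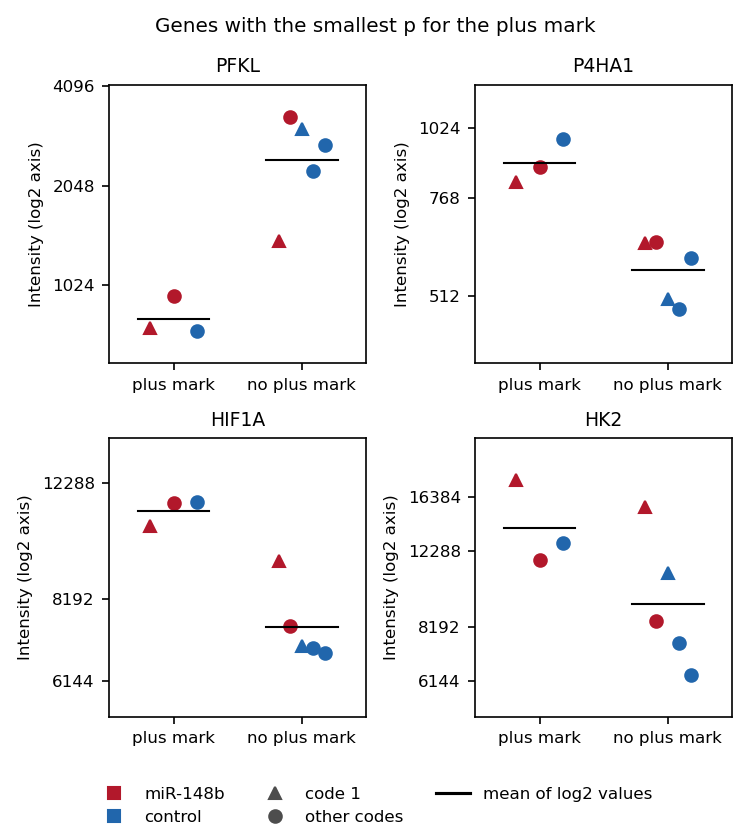
Intensity (log2 axis) of the 4 genes with the smallest p for the plus mark, with plus arrays left and the others right. Points are arrays (red miR-148b, blue control, triangles for code 1) and lines are means of log2 values. PFKL lies between 745 and 949 with the mark and between 1397 and 3319 without it.

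The code and the mark carried most of the spread of these genes, as they did for all genes. Of the summed squared deviations of log2 values over the 35 genes, code 1 alone took 53.3%, the plus mark alone 24.8% and treatment alone 17.8%, shares that overlap because the marks fall unevenly on the groups. Over all genes the shares were 57.5%, 19.5% and 12.4%. Within the classes, code 1 took 73.9% in the other hypoxia-induced genes and 66.5% in the oxygen sensing genes, and 23.3% in the glycolytic enzymes, where the plus mark took 49.3%. Single genes weigh heavily in these shares. Without PFKL, chosen after its values were seen, the enzymes gave 39.0% to code 1 and 25.9% to the plus mark, and without ANGPTL4 the other hypoxia-induced genes gave 53.0% to code 1.

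Between miR-148b and control, which was the question of the study, 0 of the 35 genes passed an adjusted p of 0.05 with code 1 and the plus mark in the fit, and 0 of all genes did. The smallest adjusted p was 0.285 among the 35 genes and 0.259 over all probes. At an unadjusted p under 0.05 there were 5 of 35 genes (14.3%), against 13% of all genes. The median log2 difference was -0.0054 over the 35 genes and -0.018 over all genes, and the values ran from -0.47 to 0.58. For 0 of the 35 genes did the groups not overlap, against 4.01% of all genes.

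ANGPTL4 had the smallest p. It read 2485, 2477, 636 and 662 on the miR-148b arrays, against 1664, 355, 513 and 386 on the control arrays. Replicates 1 and 2 of miR-148b and control replicate 1 were high, all of code 1, and the adjusted log2 difference was 0.58 (SE 0.14, 95% interval 0.25 to 0.91, unadjusted p = 0.00485, adjusted p = 0.285). In the 3 pairs that match in code and plus mark (replicates 1, 3 and 4), miR-148b minus control was 0.58, 0.31 and 0.78. EPAS1 read 5351, 6874, 11943 and 8990.4 on the miR-148b arrays, against 9327, 12651, 14048 and 10485 on the control arrays, with a log2 difference of -0.47 (SE 0.15, unadjusted p = 0.0165, adjusted p = 0.332). The matched pairs of EPAS1 gave -0.80, -0.23 and -0.22, all below 0.

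EGLN1 read 1718, 1896, 3183 and 3331 on the miR-148b arrays, against 1247, 2362, 2936 and 2555 on the control arrays, with a log2 difference of 0.36 (SE 0.11, unadjusted p = 0.0181) and matched pairs of 0.46, 0.12 and 0.38. P4HA2 read 10016, 10144, 14197 and 12716 on the miR-148b arrays, against 6639, 9429.6, 12854 and 11158 on the control arrays, with a log2 difference of 0.34 (SE 0.13, unadjusted p = 0.0355) and matched pairs of 0.59, 0.14 and 0.19. Both genes were higher with miR-148b in every matched pair, yet the groups overlapped. VEGFA, next by p, had a log2 difference of 0.32 (unadjusted p = 0.0493), and its matched pairs of -0.014, 0.57 and 0.32 did not share a sign. Over the 35 genes, 13 (37.1%) had 1 sign in all 3 matched pairs, 5 above and 8 below the control, against 38.1% of all genes.

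None of the 16 glycolytic enzymes reached an unadjusted p of 0.05 for miR-148b minus control. In pathway order the log2 differences were 0.02 for HK1, 0.20 for HK2, 0.047 for GPI, -0.044 for PFKL, -0.12 for PFKM, -0.18 for PFKP, -0.32 for ALDOA, -0.073 for ALDOC and -0.0054 for TPI1. The lower part of the pathway gave -0.12 for GAPDH, 0.071 for PGK1, -0.067 for PGAM1, -0.14 for ENO1, -0.18 for ENO2, -0.013 for LDHA and 0.058 for LDHB. For the 4 enzymes always given in full, the 95% intervals were -0.40 to 0.15 for GAPDH, -0.25 to 0.39 for PGK1, -0.60 to 0.32 for ENO1 and -0.39 to 0.37 for LDHA. The means of GAPDH were 54046 ± 5154 with miR-148b and 60916 ± 10939.8 in control, and those of LDHA 66161 ± 7993 with miR-148b and 65299.9 ± 8191 in control (SD, n = 4 each).

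Among the remaining genes, the miR-148b minus control log2 differences were -0.043 for PDK1, 0.20 for PFKFB3, 0.06 for PFKFB4, 0.0071 for EGLN3, 0.15 for HIF1A and -0.074 for MXI1. HIF1A averaged 9717 ± 1730.4 with miR-148b and 8039.8 ± 2316 in control (SD, n = 4 each), less apart than the spread among the control arrays. The other hypoxia-induced genes gave -0.27 for CA12, 0.22 for ADM, 0.20 for ANKRD37, 0.0019 for BNIP3, -0.028 for BNIP3L, -0.21 for NDRG1, 0.13 for P4HA1 and -0.069 for LOX. On the brightest probes, all of these 14 genes had unadjusted p-values of 0.05 or more. The dimmer LOX probe had the opposite sign, with a log2 difference of 0.67 (unadjusted p = 0.0296, adjusted p = 0.369 in the limma fit). Of the 27 further probes of the 35 genes, 18 had the sign of the brightest probe and 0 passed the adjusted threshold.

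**Figure D4:**
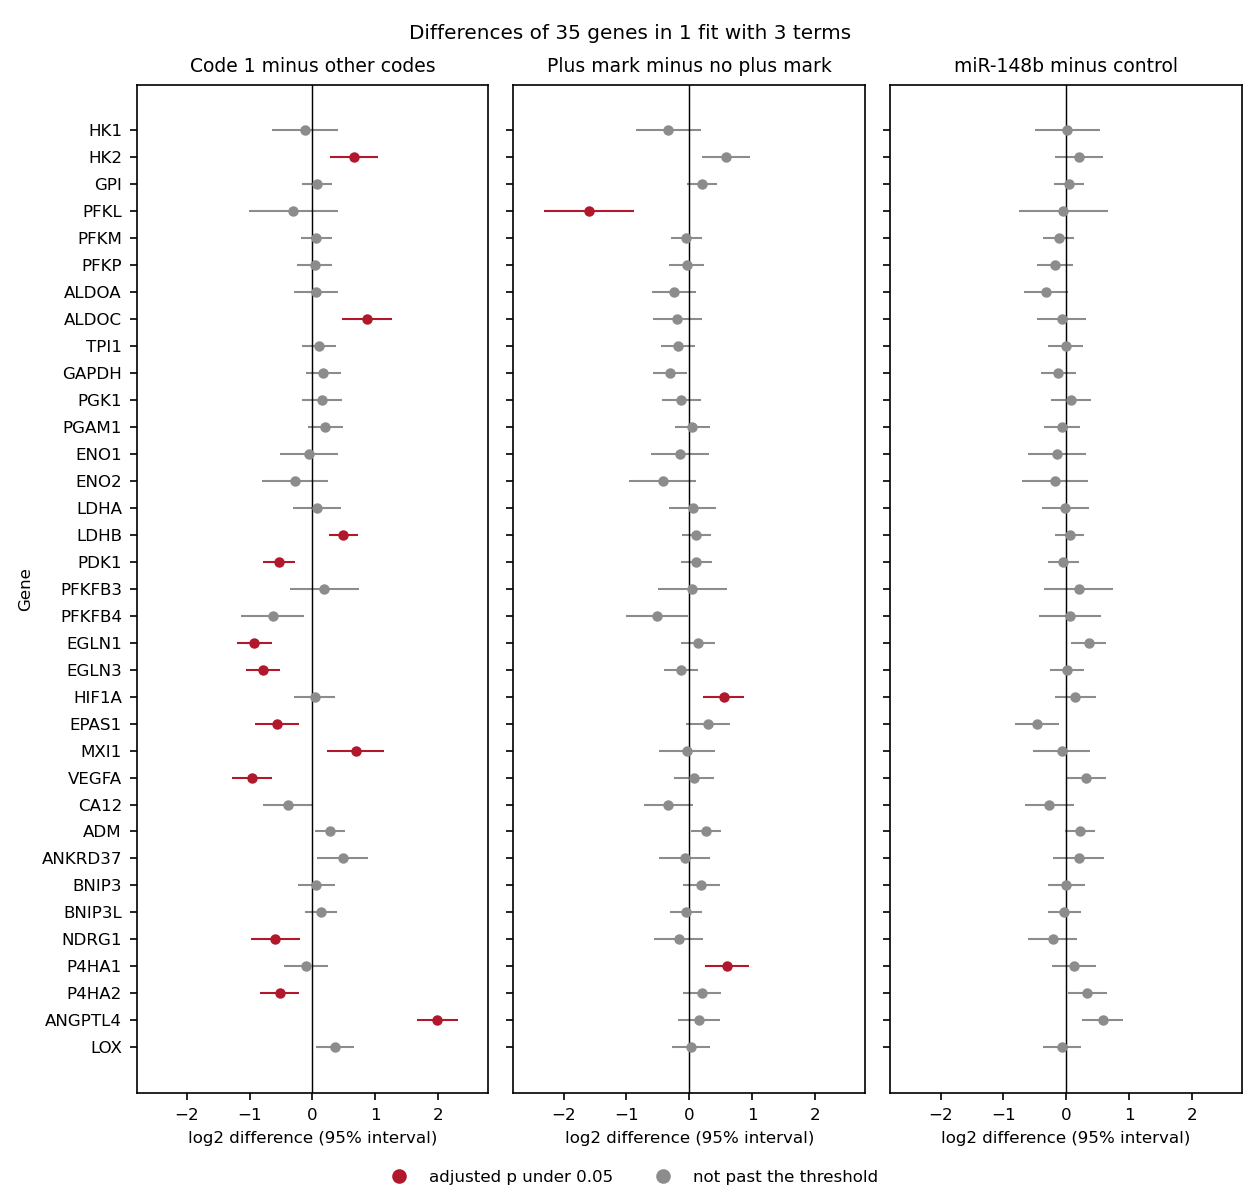
Log2 differences of the 35 genes with 95% intervals, in panels for code 1 minus other codes, plus minus no plus, and miR-148b minus control, genes in rows by class, red points past an adjusted p of 0.05 and grey ones not. There are 12 red points for code 1, 3 for the plus mark and 0 for miR-148b.

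**Figure D5:**
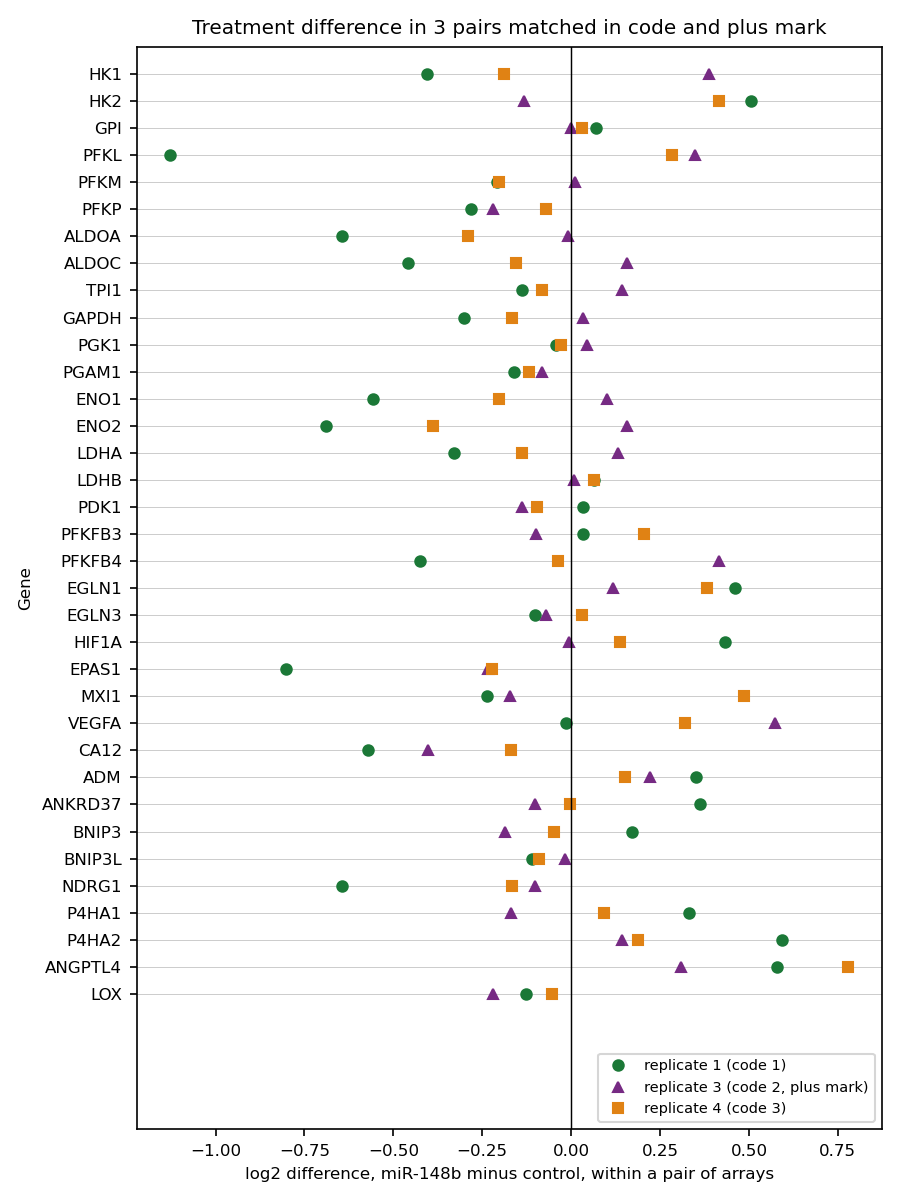
Log2 difference miR-148b minus control in each of the 3 pairs matched in code and plus mark (replicates 1, 3 and 4), genes in rows. In 13 of 35 genes the 3 pairs share a sign, and ANGPTL4 runs from 0.31 to 0.78.

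Other genes of the pathways were taken from 5 lists, whose shares called for code 1 were 42.1, 50, 45.5, 5.88 and 46.9% in the order below, against 32.4% of all genes. For code 1, of the other genes of glucose and glycogen handling 8 of 19 passed, 2 higher and 6 lower, led by the hexokinase-domain gene HKDC1 (-4.14), the phosphoglucomutase gene PGM2 (-1.44) and the sugar transporter gene SLC2A12 (0.88). HKDC1 read only 17.3 to 23.9 on code 1, against 234 to 572 on the other codes, and values that dim are not shown to lie above background, so the size of its difference is uncertain. In the pentose phosphate pathway 4 of 8 passed, 3 higher and 1 lower, led by the ribose-phosphate kinase gene PRPS1 (0.80), the lactonase gene PGLS (0.70) and the epimerase gene RPE (0.68), while the transaldolase gene TALDO1 fell (-0.44). Values in brackets are log2 differences, code 1 minus other codes. Of the genes for the entry of pyruvate into mitochondria 5 of 11 passed, 1 higher and 4 lower. Both subunits of the mitochondrial pyruvate carrier fell (MPC1 -1.59, MPC2 -1.04), and the kinase gene PDK4 rose (1.46). The pyruvate dehydrogenase subunit gene PDHA1 and the phosphatase gene PDP1 also fell (-0.63 and -1.03). Of the HIF regulators 1 of 17 passed, the elongin gene ELOB (-0.51), part of the VHL ligase. Of the other HIF targets 15 of 32 passed, 6 higher and 9 lower, led by the nuclear receptor gene RORA (2.16), the haem oxygenase gene HMOX1 (-1.58) and the chemokine receptor gene CXCR4 (1.58). The RORA probe was dim, at 45.3 to 71.8 on the other codes. The median log2 differences of the 5 lists, in the same order, were -0.18, -0.14, -0.05, -0.087 and -0.11, against -0.043 over all genes.

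For the plus mark the same lists gave 4 of 19, 0 of 8, 1 of 11, 5 of 17 and 1 of 32 genes past the threshold, or 21.1, 0, 9.09, 29.4 and 3.12%, against 13.4% of all genes. Values in brackets are log2 differences, plus minus no plus. In glucose handling HKDC1 rose (0.60) and 3 fell, LDHC (-1.65), PKLR (-1.63) and HK3 (-1.37), which encode testis, liver and blood cell isoforms. PKLR and HK3 read at most 17.4 and 16.6 on the plus arrays, too dim for the size of the difference to be relied on. The pyruvate dehydrogenase gene PDHA1 rose (0.45), and in the pentose phosphate pathway PRPS2 was nearest (0.59, adjusted p = 0.0508). Of the HIF regulators 3 rose: ARNT, the HIF beta subunit (0.93), HIF1AN (0.77) and the chaperone gene HSP90AA1 (0.44). The coactivator genes EP300 and CREBBP fell (-1.53 and -0.91). Of the other HIF targets COX4I2 fell (-1.36). It read only 22.2 to 33.4 on the plus arrays, so the size of its difference is uncertain. TALDO1, PDP1, HIF1AN, HSP90AA1 and the further values of HKDC1 and PDHA1 were named after their values were seen, to complete these small counts.

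For miR-148b minus control 0 genes of these lists passed. The smallest p in each list belonged to PKLR (0.47, adjusted p = 0.271), RPIA (-0.64, adjusted p = 0.271), DLAT (0.29, adjusted p = 0.442), HIF1AN (-0.83, adjusted p = 0.259) and BHLHE41 (-0.50, adjusted p = 0.268), with log2 differences and p-values from limma. HIF1AN encodes factor inhibiting HIF, the asparaginyl hydroxylase that blocks coactivator binding to the HIF alpha subunits. Its values were 107, 194, 157 and 90.9 on the miR-148b arrays, against 202, 181, 265 and 148 on the control arrays. The groups overlapped, and the HIF1AN probe was dim, at the 37.7th percentile. The PKLR probe was dimmer still, at the 14th percentile, so the size of its difference is uncertain.

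Some markers of other cell types also differed with code 1, and within each list the differences went both ways. The fibroblast gene COL1A2 differed by -4.65 on the log2 scale and the endothelial gene PECAM1 by 1.53, both past the threshold. COL1A2 read only 11.5 to 31.6 on code 1, against 304 to 494 on the other codes, and is not shown to lie above background there, so that size is uncertain. The other endothelial markers, VWF (-0.31) and CDH5 (-0.046), had the opposite sign to PECAM1 and did not pass. Of the other fibroblast markers COL1A1 passed (-0.47). DCN (0.14), the only one with a positive difference, did not pass and was dim, at the 4.58th percentile. LUM read 57.3 to 86.1 on the other codes and was empty on every code 1 array, so it had no estimate. Also past the threshold were the leukocyte gene CD14 (-0.95) and, of the genes listed as high in the line, SPARC (-2.13), CD44 (-1.25), MSN (0.68) and VIM (0.46). Of those listed as low in it, ERBB2 (-0.69) and KRT19 (0.35) passed. The rest of the leukocyte list did not pass, with 0.34 for PTPRC, 0.26 for CD3E, -0.33 for ITGAM and -0.16 for HBB. Shares called were 20% (leukocyte), 33.3% (endothelial), 66.7% (fibroblast), 66.7% (line, high) and 28.6% (line, low), against 32.4% of all genes. Lists this small give only coarse shares. Summed over the markers with a value on every array, 2 of 5 listed fibroblast markers read 59.2 to 92.8 on code 1, against 397 to 575 on the other codes. The sums were 287 to 301 on code 1, against 115 to 165 on the other codes, for 2 of 4 endothelial markers, and 318 to 419 on code 1, against 437 to 607 on the other codes, for 4 of 6 leukocyte markers, with 0 values at 0. The endothelial sum is mostly PECAM1, at 250 to 271 on code 1, against 76.5 to 102 on the other codes. Its other gene, VWF, averaged 36.7 and 44.2. The fibroblast sum differs mainly through COL1A2. The leukocyte sum differs mainly through CD14, at 120 to 170 on code 1, against 224 to 370 on the other codes. Of its other genes, PTPRC (0.34) and CD3E (0.26) had positive log2 differences and ITGAM (-0.33) a negative one. Each of these sums thus largely repeats a single gene. The part of these markers in the code 1 differences was not tested. In samples of many cells, fewer cells of a type and less RNA per cell cannot be told apart.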

How the data were processed

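RNA of 8 samples of MDA-MB-231 cells was hybridised to 1-colour Agilent arrays, and Agilent Feature Extraction 10.5.1.1 made the image analysis, per the labels. The values are probe intensities on a linear scale, deposited by the authors as 1 table of 33446 probes by 8 arrays, with 0 columns left unused. How background, normalization and filters were handled is not given in the sources used. The arrays share their highest value, as between-array quantile normalization leaves them, and such values cannot show a shift of all genes. Empty cells, found in 2864 probes on at most 3 arrays each and in 0 of the probes that stand for the described genes, were left empty.

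Log2 was taken with a pseudocount of 0. Probe names came from GEO's platform annotation, updated by gene number from RefSeq (GRCh38.p14): 24790 probes had 1 gene, 27 several and 8629 none. Code 1, plus mark and treatment were fitted together over all 8 arrays with limma 3.58.1 in R 4.3.3 (lmFit, eBayes, two-sided, 4 residual degrees of freedom), with Benjamini-Hochberg adjustment over 33240 probes with an estimate and a threshold of 0.05. SD is over arrays of a group on the linear scale, and SE and 95% intervals are from the fit on the log2 scale. Where arrays are not separate cultures, p-values measure only the spread between these samples.

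The genes, the pathway lists and the tests were chosen with earlier results of these data known. All genes described were named with their difference. Values on every array were given for those past the threshold (up to 12), for the 4 with the smallest p where fewer than 4 passed, and always for ENO1, GAPDH, LDHA, PGK1, VEGFA, HIF1A and EPAS1. Of each pathway list up to 3 genes past the threshold with the largest absolute difference were named, or else the 1 with the smallest p. Alternatives covered scale, pseudocount, dim probes, choice of probe, adjustment, spread model, covariates and left-out arrays. The fit was tested on simulated data. Sequences are RefSeq's. Figures were drawn with matplotlib 3.10.9.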

Additional observations from a re-analysis of the deposited data

Results flagged for a closer look

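Among 140 groups of 4 or 5 arrays, formed for each gene by treatment or mark, 8 had 1 array far from the others by Dixon's criterion at 95%, and chance gives about 1 in 20 groups. HIF1A read 11510 in control replicate 3, which carries the plus mark, with the other control arrays at 6786 to 6946. Among arrays without the plus mark, HIF1A read 9380 in miR-148b replicate 1, with the others at 6786 to 7459. ANGPTL4 read 1664 in control replicate 1, the control of code 1, with the other control arrays at 355 to 513. PFKFB3 read 1756 in control replicate 2, with the other control arrays at 3003 to 3211 and the other arrays without the plus mark at 3003 to 3462. TPI1 read 27290 in control replicate 3, with the other control arrays at 35080 to 36650. CA12 read 2316 in miR-148b replicate 4, with the other miR-148b arrays at 1305 to 1437. PFKM read 6490 in miR-148b replicate 2, with the other miR-148b arrays at 6062 to 6107, a small difference beside a tight group.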

How the results depend on the processing

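For code 1, 12 genes passed, with 9 to 16 under all alternatives other than leaving out arrays. Without the plus-marked arrays 6 passed (2 higher, 4 lower). ALDOC, LDHB, PDK1, NDRG1, P4HA2, EPAS1 and MXI1 lost their calls there. HK2, VEGFA, EGLN1, EGLN3 and ANGPTL4 kept theirs, and the remaining gene had not passed with all arrays. Leaving out 1 array gave 5 to 13 genes, with 6 without miR-148b replicate 3, 5 without miR-148b replicate 4 and 5 without control replicate 1. VEGFA, EGLN1, EGLN3 and ANGPTL4 passed under every alternative that gave them a value. For the plus mark, 3 genes passed, against 1 (lower) with each array centred on its median, 1 with adjustment over 1 probe per gene, 6 with an intensity trend and 0 with the code as 3 levels. Leaving out 1 array gave 0 to 6 genes: 6 without miR-148b replicate 1, 1 without control replicate 1, 2 or 4, and 0 without control replicate 3 or miR-148b replicate 2, 3 or 4. The cause was not tested beyond the loss of an array. For miR-148b minus control, 0 genes passed under all 21 alternatives, and 0 to 7 had an unadjusted p under 0.05. With the replicate block 0 passed (smallest adjusted p = 0.603), as did 0 with the 3 matched pairs as a replicate block (0.562). The replicate numbers did not pair the arrays as a whole: deviations from the group means correlated at 0.61, 0.59 and 0.66 for replicates 1, 3 and 4 and at -0.50 for replicate 2. No called gene changed sign under any alternative. With 8 arrays and 3 terms, 4 residual degrees of freedom limit what the fit can show, and the dim probes of ALDOC and EGLN3 have no detection call.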
